A study of Mus musculus with 8 samples.

Results

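The core pluripotency factors studied here were Pou5f1 (also called Oct4), Nanog, Sox2, Utf1, Sall4 and Lin28a. They were chosen by symbol, as the rows of the deposited tables whose gene name holds one of the 6 symbols, and all 6 were found in both tables, among 24631 named genes in either table. They were measured by RNA-Seq in germ cells of embryonic day 15.5 (E15.5) mouse gonads, sorted by the Oct4-EGFP transgene, a green fluorescent reporter driven by the Pou5f1 promoter. The 8 libraries comprised 2 of control and 2 of Snf5 CKO germ cells from each sex. Per the paper, the number of embryos behind a library varied, with more in male controls than in male Snf5 CKO. The sort purity that it lists is high but not complete in every library. Snf5 CKO embryos carried a floxed and a deleted Snf5 allele (Snf5 fx/Δ) together with TNAP-Cre, a Cre recombinase knocked into the Alpl gene that acts in primordial germ cells (PGCs) and deletes the first exon of Snf5. Controls were a mixture of Snf5 fx/+, Snf5 fx/Δ and Snf5 fx/+ with TNAP-Cre, so part of the control cells also lacked an Snf5 allele or carried Cre, and every embryo carried the reporter. The labels give the strain background as C57BL/6, whereas the study's methods describe a mixed background. Recombination by TNAP-Cre was incomplete, so Snf5 CKO libraries also contain cells with an intact floxed allele.

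Snf5 (Smarcb1) is a core subunit of the SWI/SNF complex, which moves nucleosomes with energy from ATP. POU5F1, SOX2 and NANOG are transcription factors that hold embryonic stem cells in a pluripotent state, and POU5F1 and SOX2 bind DNA side by side at many shared sites. Mouse PGCs also express these genes. The paper states that genes of PGCs and of pluripotency, as a group, go down as female cells enter meiosis and male cells become quiescent prospermatogonia. With controls of an earlier day beside those of E15.5, the paper also reports that such genes were incompletely lowered in female Snf5 CKO cells. For male Snf5 CKO cells it reports that genes of PGC differentiation did not go down. In the male controls here Pou5f1 was still high, as given below. All libraries used here are of E15.5, so a rise or fall below means a level above or below control at that day. A change over time was not measured. SALL4 is a zinc finger partner of POU5F1, UTF1 is a chromatin-associated protein of undifferentiated cells, and LIN28A is an RNA-binding protein that blocks the maturation of let-7 microRNAs.

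The windows before the start sites of Nanog, Sox2 and Utf1 are shown because the first 2 genes rose in Snf5 CKO germ cells of both sexes, whereas Utf1 rose in females and fell in males. Each is the 250 bases before a RefSeq start site on GRCm38.p6 (mm10), read in the direction of the gene. The RefSeq starts of Sox2 (34649995) and Utf1 (139943856) differ from the gene starts of the GENCODE M21 annotation (34650405 and 139943789). The Utf1 window thus reaches into the GENCODE gene, and positions before the start depend on the annotation. Capitals mark the octamer core bound by POU factors (ATGCAAA) and the core of SOX sites (ACAATG), each searched on both strands. In the Nanog window the base between the cores is in capitals too, although it belongs to neither. The Nanog window is on the plus strand at chr6:122707239-122707488, the Sox2 window on the plus strand at chr3:34649745-34649994 and the Utf1 window on the plus strand at chr7:139943606-139943855.
Nanog: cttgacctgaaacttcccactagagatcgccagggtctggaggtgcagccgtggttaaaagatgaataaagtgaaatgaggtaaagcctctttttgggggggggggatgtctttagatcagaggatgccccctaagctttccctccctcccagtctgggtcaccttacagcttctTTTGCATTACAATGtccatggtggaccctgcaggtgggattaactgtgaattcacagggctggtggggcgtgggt
Sox2: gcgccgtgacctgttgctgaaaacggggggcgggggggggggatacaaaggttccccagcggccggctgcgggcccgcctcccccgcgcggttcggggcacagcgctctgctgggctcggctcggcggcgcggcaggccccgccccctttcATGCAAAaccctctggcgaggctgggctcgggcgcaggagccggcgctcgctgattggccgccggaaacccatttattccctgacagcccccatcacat
Utf1: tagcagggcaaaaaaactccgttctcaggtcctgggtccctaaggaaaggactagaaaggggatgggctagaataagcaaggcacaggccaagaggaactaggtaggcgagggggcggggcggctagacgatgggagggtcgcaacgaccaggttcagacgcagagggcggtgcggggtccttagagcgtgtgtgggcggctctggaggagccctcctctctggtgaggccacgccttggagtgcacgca
In the Nanog window an octamer core and a SOX core stood side by side, from 75 to 62 bases before the start. This joined form (CATTGTNATGCAAA, either strand) was found in 2 of 32851 windows, 0.00609%, and both were windows of Nanog that overlap each other. The Sox2 window held an octamer core from 99 to 93 bases before the start and 2 GC boxes (GGGCGG), from 223 to 218 and from 111 to 106 bases before it. The Utf1 window held neither core but 4 matches to the GC box (searched on either strand, as the others), 2 of which share a base. Of all windows, 4.12% held the octamer core, 10.7% the SOX core and 32.7% the GC box. A window was also found for Pou5f1 and Lin28a, not for Sall4. The window of the first Pou5f1 start held neither core but a GC box from 45 to 40 bases before the start, that of the second start held a SOX core from 158 to 153 bases before it, and the Lin28a window held a SOX core from 96 to 91 bases before it. These matches describe the letters of the windows and were not tested for binding.

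Levels are in FPKM, fragments scaled by transcript length and by the size of a library, so genes can be compared within a table. How library size was taken is not given in the sources used here. The 4 libraries of each sex were quantified together, and the sexes were fitted separately, so values of females and males are given side by side without a test between them. Differences are given as log2FC, the log2 fold change of FPKM + 1 from control to Snf5 CKO with its standard error (SE), a scale that shrinks the change of genes with low levels. A gene was called at a log2FC of at least 1 in size and a Benjamini-Hochberg adjusted p under 0.05 from limma over all tested genes. The FPKM of a library summed to between 673741 and 1554757, and loci without a gene name held between 5.46% and 42.1% of it. The tables hold no counts, so the depth of a library is unknown. The smallest two-sided p of an exact permutation test of 2 against 2 libraries is 0.333. The p-values of the fit rest in part on the spread between the 2 libraries of a group, which may in part be technical. The larger part is variance shared across genes, with 4.75 of 6.75 degrees of freedom in females and 3.05 of 5.05 in males. Without this sharing, the adjusted p of female Pou5f1 was 0.0486, against 9.87e-05 in the limma fit reported. In bulk samples, fewer cells of a type and less RNA per cell cannot be told apart.

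Smarcb1 was measured first, as a check of the labels. It was at 23.4 and 22.3 FPKM in female controls against 4.24 and 2.47 FPKM in female Snf5 CKO (log2FC -2.48, SE 0.24, adjusted p = 0.000269). In males it was at 141 and 167 FPKM against 8.73 and 10.1 FPKM (log2FC -3.90, SE 0.18, adjusted p = 0.00212). The values cover the whole gene, although only its first exon is deleted.

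The labelled cell type was checked by Ddx4, which encodes the germ cell helicase MVH. It was at 363 and 296 FPKM in female controls and at 249 and 203 FPKM in female Snf5 CKO (log2FC -0.54, adjusted p = 0.0770), and at 565 and 458 FPKM in male controls and 299.9 and 237 FPKM in male Snf5 CKO (log2FC -0.93, adjusted p = 0.0360), both Snf5 CKO libraries being the lower ones in each sex but the fold being under that required for a call. For the counts of markers that follow, 17.3% of all tested genes were called higher and 21.6% lower in females, and 14.4% and 17.5% in males. Of 9 germ cell markers tested, 3 were higher (Dnd1, Dppa5a and Kit) and 3 lower (Gtsf1, Mael and Stk31) in female Snf5 CKO, and 2 were higher (Dppa5a and Kit) and 5 lower (Gtsf1, Mael, Stk31, Dnd1 and Tex14) in male Snf5 CKO. These genes were named after their values were seen. In males all 8 markers of Sertoli cells, the supporting cells of the testis, were higher in Snf5 CKO, and their summed level was 53.2 and 44.1 FPKM in control against 186 and 246 FPKM in Snf5 CKO. Of 9 tested Leydig and stromal markers in males, 6 were lower and none higher (Insl3, at the same joined locus, among the lower ones), with a summed level of 107 and 68.2 FPKM against 23.4 and 17.5 FPKM. In females 3 of 6 tested markers of pre-granulosa cells, the supporting cells of the ovary, were higher and none lower, and the summed level of the list was 6.09 and 9.42 FPKM in control against 28.8 and 24.1 FPKM in Snf5 CKO. In the same females, of 4 Sertoli markers tested 1 was higher (Amhr2) and 1 lower (Fabp3), of 4 Leydig and stromal markers 1 was higher (Insl3, at a locus that the table joins with Jak3) and 1 lower (Col1a1), and of 3 blood and endothelial markers 1 was higher (Pecam1). In males, 2 of 3 tested pre-granulosa markers were higher, and none of 4 tested blood and endothelial markers passed the test in either direction. No marker was at 0 in all 4 libraries of a table. The part of these cells in the differences below was not tested.

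In female germ cells, all 6 core pluripotency factors were higher in Snf5 CKO, with rises between 7.23-fold for Utf1 and 62.2-fold for Nanog. Both Snf5 CKO libraries lay above both controls for each of the 6. Of all 11520 genes tested in females, 17.3% were called higher and 21.6% lower, 36.4% had both Snf5 CKO libraries above both controls and 45.1% had both below. Ranked by the size of the rise among these genes, Nanog stood at place 11, Pou5f1 at 16, Sall4 at 56, Sox2 at 94, Lin28a at 116 and Utf1 at 218. In male germ cells the 6 genes divided. Nanog and Sox2 were higher in Snf5 CKO, Utf1 was lower, and Pou5f1, Sall4 and Lin28a did not pass the test. Of all 12269 genes tested in males, 14.4% were called higher and 17.5% lower, and 34.6% had both Snf5 CKO libraries above both controls and 40% both below.

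**Figure D1:**
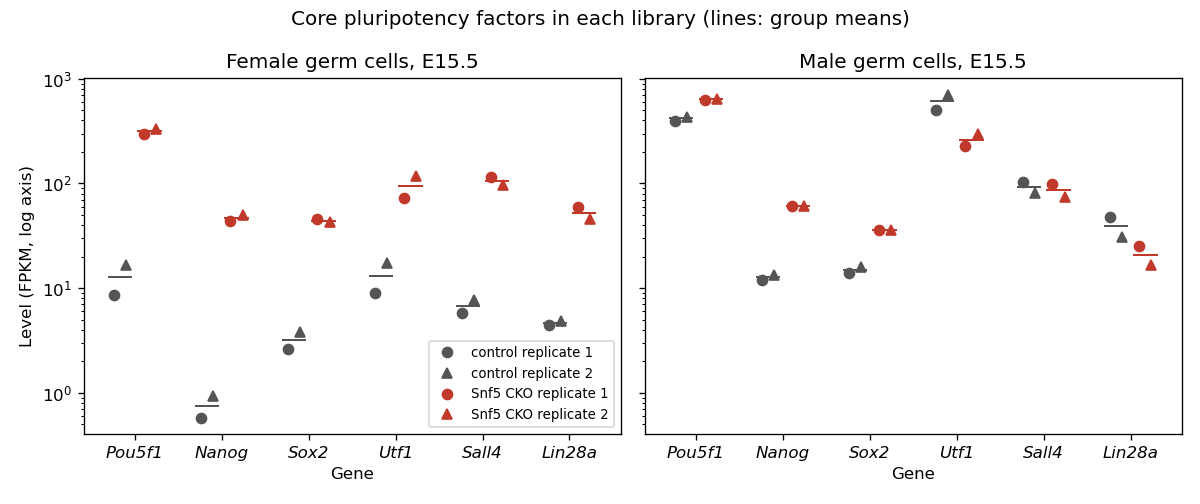
Level of each core pluripotency factor in FPKM (vertical log axis) in each of the 4 female (left) and 4 male (right) libraries. Circles are replicate 1, triangles replicate 2, grey control and red Snf5 CKO, and the lines are group means. In females all red points lie above the grey ones. In males Pou5f1, Nanog and Sox2 lie higher and Utf1 and Lin28a lower in red, and the Sall4 points of the groups overlap. Male Pou5f1 and Lin28a were not called.

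Pou5f1, the gene whose promoter drives the sorting reporter, was at 8.63 and 16.7 FPKM in the female controls and at 295 and 333 FPKM in female Snf5 CKO. The control libraries differed from each other more than the Snf5 CKO libraries did in proportion, but both lay far below them. The rise was 24.7-fold, with a log2FC of 4.59 (SE 0.29, adjusted p = 9.87e-05). In males Pou5f1 was at 399 and 436 FPKM in control and at 620.4 and 648 FPKM in Snf5 CKO. Both Snf5 CKO libraries lay above both controls, but the log2FC of 0.60 (95% confidence interval -0.01 to 1.21, adjusted p = 0.0944) did not pass. With the replicate number as a block the adjusted p was 0.000238 at the same log2FC, still under the fold required for a call. That p rests more on variance shared across genes, since the block takes a further coefficient from 4 libraries. Giving every library an equal total over named loci lowered the male log2FC to 0.41 (adjusted p = 0.338). Median-of-ratios rescaling raised it to 0.76 (adjusted p = 0.0508), and eBayes lacking the trend gave an adjusted p of 0.0409 at 0.60. Leaving out each library in turn gave log2FCs from 0.54 to 0.67. In male libraries Pou5f1 stood between the 98.8th and 99.4th percentile of all named loci, those below the filter included, and in female libraries it went from the 70.5th and 78.1st percentile in control to the 98.7th and 98.6th in Snf5 CKO. The sort itself depended on the Pou5f1 promoter, and its part in these values was not tested.

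Sox2 encodes the DNA-binding partner of POU5F1. In females it was at 2.60 and 3.80 FPKM in control and at 45.9 and 42.4 FPKM in Snf5 CKO. These groups stood well apart, with a 13.8-fold rise and a log2FC of 3.44 (SE 0.21, adjusted p = 9.66e-05). In males it was at 14 and 16 FPKM in control and at 36.2 and 35.8 FPKM in Snf5 CKO, which is 2.40-fold higher (log2FC 1.21, SE 0.17, adjusted p = 0.00543). When the libraries were rescaled to a common sum over named loci, the male log2FC was 1.04 with an adjusted p of 0.0701, which ends the call. Sox2 has 1 exon, on chr3:34650405-34652461 of GRCm38, and lies inside Sox2ot, a long noncoding RNA gene on the same strand. The locus that the female table gives for Sox2, chr3:34560381-34677993, covers part of Sox2ot as well. The rows named for Sox2ot stayed low, between 0 and 2.43 FPKM in females and between 0.676 and 1.42 FPKM in males, but how reads were divided between the genes is not known.

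Nanog, a homeodomain factor of the pluripotent state, was under 1 FPKM in the female controls, at 0.575 and 0.931 FPKM, and stood at 43.9 and 49.7 FPKM in female Snf5 CKO. The log2FC was 4.77 (SE 0.20, adjusted p = 9.57e-05), the largest of the 6 genes in females. In males it rose from 12.1 and 13.3 FPKM in control to 60.4 and 61.4 FPKM in Snf5 CKO, 4.80-fold (log2FC 2.18, SE 0.16, adjusted p = 0.00216). The replicates lay close together in both male groups, and this was the largest male rise of the 6 genes. The lower confidence bound that Cufflinks gives was 0 in both female controls for Nanog, and likewise for Pou5f1, Sox2 and Utf1, so these female folds rest on control levels whose bounds reach 0.

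Sall4, the zinc finger partner, was at 5.72 and 7.63 FPKM in female controls and at 115 and 95.7 FPKM in female Snf5 CKO. It rose 15.8-fold, with a log2FC of 3.80 (SE 0.20, adjusted p = 9.57e-05). In males it was at 102 and 81.3 FPKM in control and at 98.7 and 74.4 FPKM in Snf5 CKO. The male groups overlapped, and the log2FC of -0.09 (95% confidence interval -0.68 to 0.50, adjusted p = 0.779) changed sign when a control or an Snf5 CKO library was left out and under median-of-ratios rescaling.

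Utf1 encodes a chromatin-associated protein that is restricted to pluripotent and germ cells. It was at 8.94 and 17.4 FPKM in female controls and at 72.4 and 118 FPKM in female Snf5 CKO. The rise of 7.23-fold was the smallest of the 6 and its error the largest (log2FC 2.79, SE 0.35, adjusted p = 0.000678). In males Utf1 was the highest of the 6 genes in control, at 507 and 707 FPKM, and was at 226 and 299.6 FPKM in Snf5 CKO. Both Snf5 CKO libraries were below both controls, with a level 56.7% lower and a log2FC of -1.20 (SE 0.29, adjusted p = 0.0251). The male call was lost without control replicate 1 (log2FC -1.44, adjusted p = 0.0566), without control replicate 2 (-0.96, adjusted p = 0.140) and without Snf5 CKO replicate 1 (-0.996, adjusted p = 0.148).

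Lin28a, the let-7 regulator, was at 4.45 and 4.82 FPKM in female controls and at 59.3 and 45.7 FPKM in female Snf5 CKO. The rise was 11.3-fold, with a log2FC of 3.24 (SE 0.20, adjusted p = 9.66e-05). In males Lin28a was at 48.1 and 30.8 FPKM in control and at 25.2 and 16.6 FPKM in Snf5 CKO. The Snf5 CKO libraries were both under the lower control, but the log2FC of -0.88 (95% confidence interval -1.68 to -0.09, adjusted p = 0.0698) did not pass. In both male groups replicate 1 was higher than replicate 2, and with the replicate number as a block the adjusted p was 0.000231 at the same log2FC, under the fold required. The call was made without control replicate 2 (-1.20, adjusted p = 0.0257) or without Snf5 CKO replicate 1 (-1.17, adjusted p = 0.0280).

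**Figure D2:**
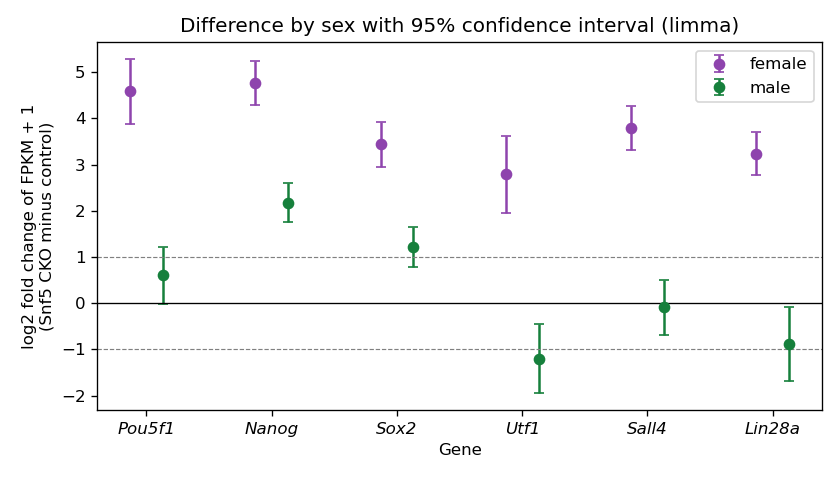
Log2FC of FPKM + 1, Snf5 CKO minus control (vertical axis), for the 6 genes in females (purple) and males (green), with 95% confidence intervals from limma. Dashed lines mark the fold required for a call. All female values lie between 2.79 and 4.77, and male values run from -1.20 for Utf1 to 2.18 for Nanog.

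The order of the levels changed between groups. In female controls Utf1 (mean 13.2 FPKM) and Pou5f1 (12.7 FPKM) were highest and overlapped, followed by Sall4 (6.68 FPKM), Lin28a (4.63 FPKM), Sox2 (3.20 FPKM) and Nanog (0.753 FPKM), none of which overlapped its neighbour. In female Snf5 CKO, Pou5f1 stood alone at a mean of 314 FPKM. Sall4 (106 FPKM) and Utf1 (95.3 FPKM) overlapped behind it, and so did Lin28a (52.5 FPKM), Nanog (46.8 FPKM) and Sox2 (44.1 FPKM). Male controls were ordered as Utf1 (607 FPKM), Pou5f1 (418 FPKM), Sall4 (91.7 FPKM), Lin28a (39.5 FPKM), Sox2 (15 FPKM) and Nanog (12.7 FPKM), with no overlap between neighbours. In male Snf5 CKO it was Pou5f1 (634 FPKM), Utf1 (263 FPKM), Sall4 (86.5 FPKM), Nanog (60.9 FPKM), Sox2 (36.0 FPKM) and Lin28a (20.9 FPKM), again with no overlap. Nanog was thus below Sox2 and Lin28a in male controls and above both in male Snf5 CKO.

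Levels taken as a percent of Pou5f1 in the same library do not depend on how a library was scaled, and are given as a description. Nanog went from 6.66% and 5.56% of Pou5f1 in female controls to 14.9% and 14.9% in female Snf5 CKO, and from 3.02% and 3.05% in male controls to 9.74% and 9.47% in male Snf5 CKO. It was thus higher relative to Pou5f1 in Snf5 CKO of both sexes. Utf1 was at 104% of Pou5f1 in both female controls and at 24.6% and 35.5% in female Snf5 CKO. In males it was at 127% and 162% in control and at 36.4% and 46.2% in Snf5 CKO. The Snf5 CKO to control ratio of this measure was 0.289 in females and 0.286 in males, although Utf1 itself moved in opposite directions. Lin28a was also lower relative to Pou5f1 in Snf5 CKO of both sexes, with ratios of 0.421 in females and 0.346 in males, and so was Sall4, with ratios of 0.607 and 0.619. For none of these 4 genes did the groups overlap on this measure. Sox2 was the exception, since it went from 30.1% and 22.7% of Pou5f1 to 15.6% and 12.7% in females, but from 3.51% and 3.67% to 5.84% and 5.52% in males. Because the measures share Pou5f1, they are not independent of each other. By size of rise Pou5f1 stood at place 16 of 11520 genes in females and 3102 of 12269 in males. Most genes therefore rose less than Pou5f1, above all in females. A lower level relative to Pou5f1, or groups that do not overlap on this measure, is thus not particular to these factors. The share of all genes with such a fall was not counted.

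**Figure D3:**
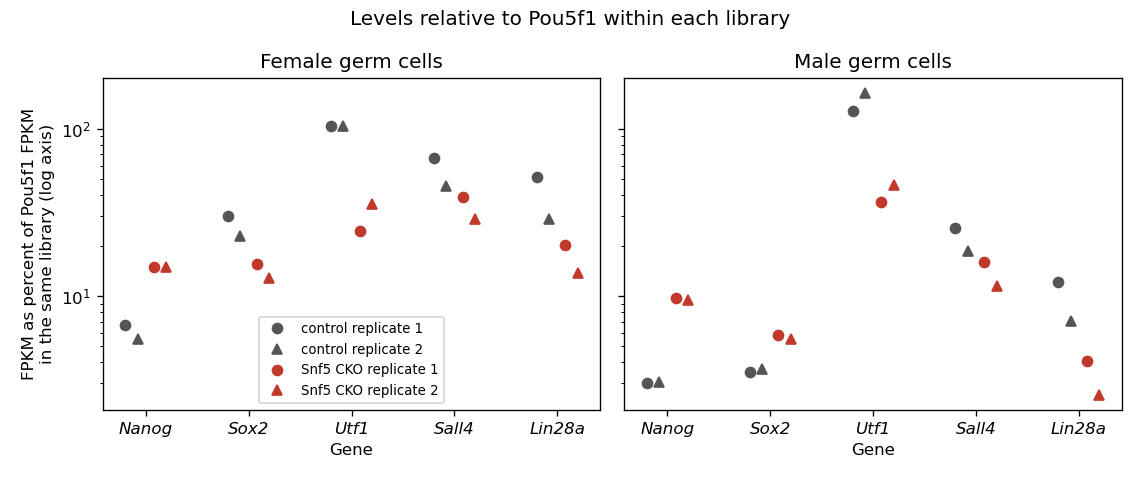
FPKM of 5 core factors as a percent of the Pou5f1 FPKM of the same library (vertical log axis), in female (left) and male (right) germ cells. Circles are replicate 1, triangles replicate 2, grey control and red Snf5 CKO. In red, Nanog lies higher and Utf1, Sall4 and Lin28a lower in both panels, and Sox2 lies lower in females and higher in males.

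Partner and target genes of POU5F1 and SOX2 formed the first of 5 related lists. The lists were chosen with earlier results of these data known, so their counts and medians are a description and not independent evidence. In females 11 of 15 tested genes were higher (17.3% of all genes were), 1 was lower (21.6%) and 3 were not called, with a median log2FC of 2.08 against -0.13 over all tested genes. In males 8 of 17 were higher (14.4% of all genes were), 2 lower (17.5%) and 7 not called, with a median of 0.87 against -0.07 over all tested genes. Nodal, a TGF-beta family ligand, was at 0 and 0.0608 FPKM in female controls and at 9.90 and 14.9 FPKM in female Snf5 CKO (log2FC 3.68, adjusted p = 9.88e-05). In males it went from 7.56 and 8.03 FPKM to 54.4 and 68.1 FPKM (log2FC 2.82, adjusted p = 0.00212). Its inhibitor Lefty1 rose most of the list in males, from 11.4 and 14.1 FPKM to 268 and 299.5 FPKM (log2FC 4.38, adjusted p = 0.00212), and Tdgf1, which encodes the Nodal co-receptor, went from 1.60 and 0.754 FPKM to 16.6 and 20.2 FPKM (log2FC 3.18, adjusted p = 0.00225). Tdh, a threonine-degrading enzyme abundant in mouse embryonic stem cells, rose in both sexes, by 3.74 and 2.79 on the log2 scale in females and males (adjusted p = 9.57e-05 and 0.00212). Dppa4, a nuclear protein of pluripotent cells, went the way of Utf1. It was at 4.43 and 7.52 FPKM in female controls and at 61.3 and 60.9 FPKM in female Snf5 CKO (log2FC 3.19, adjusted p = 0.000136), but fell in males from 766 and 826 FPKM to 142 and 165 FPKM (log2FC -2.37, adjusted p = 0.00259). Fbxo15, an F-box gene used as a reporter of pluripotency, was lower in both sexes, with a log2FC of -1.56 in females and -1.26 in males (adjusted p = 0.000874 and 0.00955).

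Among POU, SOX, SALL and LIN28 relatives, 2 of 8 tested genes were higher in females and none was lower, against 17.3% and 21.6% of all genes, with a median log2FC of 0.30. In males 1 of 10 was higher and 6 were lower, against 14.4% and 17.5% of all genes, with a median of -1.22. The counts called higher are near those shares. Sox15, the SOX gene called higher in both sexes, was at 0.484 and 0.774 FPKM in female controls and at 12.0 and 17.1 FPKM in female Snf5 CKO (log2FC 3.24, adjusted p = 0.000122). In males Sox15 went from 3.07 and 6.03 FPKM to 38.2 and 51.1 FPKM (log2FC 3.08, adjusted p = 0.00299). Sox12 was also called higher in females (log2FC 1.68, adjusted p = 0.000901). The strongest falls in males were those of Pou6f1 (log2FC -2.32, adjusted p = 0.00248) and Sall1 (log2FC -1.99, adjusted p = 0.0173), from 15.8 and 12.1 FPKM to 1.99 and 1.97 FPKM and from 8.12 and 11.4 FPKM to 0.800 and 2.99 FPKM. Lin28b, the paralog of Lin28a, fell in males from 4.91 and 3.19 FPKM to 0.835 and 0.881 FPKM (log2FC -1.42, adjusted p = 0.00783). In females, where Lin28a rose, Lin28b was at 5.69 and 5.97 FPKM in control and at 3.47 and 3.11 FPKM in Snf5 CKO, which was not a call (log2FC -0.67, adjusted p = 0.0180).

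Of the genes of the LIN28 and let-7 pathway, 4 of 13 tested were higher in females and 2 lower, against 17.3% and 21.6% of all genes, with a median log2FC of 0.07. In males 3 of 14 were higher and 1 lower, against 14.4% and 17.5% of all genes, with a median of 0.08, so these counts are not read as a result about the list. Mycn, a MYC family gene and known let-7 target, went from 6.65 and 11.3 FPKM to 142 and 138 FPKM in females and from 15.1 and 14 FPKM to 97.0 and 103 FPKM in males. Its log2FCs were 3.86 (adjusted p = 9.87e-05) and 2.70 (adjusted p = 0.00212). Igf2bp1, an RNA-binding protein gene and let-7 target, was called higher in both sexes (log2FC 1.92 in females and 1.01 in males, adjusted p = 0.000265 and 0.0229), at a locus that also holds Mir3063. Trim71, a let-7 target in the partner list as well, was called higher in females (log2FC 1.45, adjusted p = 0.00102), and stood at 40.4 and 32.1 FPKM in male controls and at 26.4 and 19.9 FPKM in male Snf5 CKO (log2FC -0.63, adjusted p = 0.0720). Dicer1, which cuts microRNA precursors, and Zcchc6, a uridylyltransferase that modifies them, were called lower in females (log2FC -1.15 and -1.02, adjusted p = 0.00753 and 0.00538). Igf2bp3 was called higher in females (log2FC 1.03, adjusted p = 0.00375) and Dgcr8, the partner of Drosha, in males (log2FC 1.80, adjusted p = 0.00538), at a locus that also holds Mir1306. Lin28b, described above, was the gene called lower in males. The male row of the exonuclease Dis3l2 read 0, 853, 0 and 0 FPKM and was not called, but it is counted among the 14 genes and in the male median.

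Of 7 tested genes of the epiblast stage, which follows naive pluripotency, 3 were higher in females and none lower, against 17.3% and 21.6% of all genes, with a median log2FC of 0.62. In males 3 of 8 were higher and 1 lower, against 14.4% and 17.5%, with a median of 0.16. Etv5, an ETS factor, rose in females from 7.75 and 8.54 FPKM to 78.5 and 69.5 FPKM (log2FC 3.03, adjusted p = 9.57e-05) and in males from 64.0 and 42.7 FPKM to 152 and 111 FPKM (log2FC 1.30, adjusted p = 0.0175). The DNA methyltransferase Dnmt3b rose by 2.12 on the log2 scale in females (adjusted p = 0.00029), and in males it rose from 10.2 and 7.66 FPKM to 42.5 and 40.4 FPKM (adjusted p = 0.00259). Etv4 was the other gene called in females (log2FC 2.52, adjusted p = 0.000154). Otx2, a homeobox gene, was listed at 0 in all 4 female libraries, but rose in males from 2.52 and 2.84 FPKM to 12.8 and 14.5 FPKM (log2FC 1.99, adjusted p = 0.00259). Sox3 fell in males (log2FC -1.41, adjusted p = 0.00446).

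Of the repressors and silencers of Pou5f1 and Nanog, 6 of 14 tested were higher in females and none lower, against 17.3% and 21.6% of all genes, with a median log2FC of 0.54. In males 4 of 12 were higher and 3 lower, against 14.4% and 17.5%, with a median of 0.79. Trp53, which can repress Nanog, rose from 3.49 and 5.30 FPKM to 92.5 and 126 FPKM in females and from 27.0 and 28.3 FPKM to 176 and 197 FPKM in males (log2FC 4.36 and 2.71, adjusted p = 9.57e-05 and 0.00212). Tcf7l1, a Wnt pathway repressor, rose by 2.76 and 2.54 on the log2 scale (adjusted p = 0.000168 and 0.00221). Cdx2, the trophectoderm factor that opposes Pou5f1, went from 3.38 and 3.64 FPKM to 102 and 77.4 FPKM in females (log2FC 4.32, adjusted p = 9.57e-05), and was at most 0.484 FPKM in males. The de novo methyltransferase Dnmt3a rose in females from 2.48 and 2.23 FPKM to 8.36 and 6.26 FPKM (log2FC 1.30, adjusted p = 0.00199), but fell in males from 191 and 165 FPKM to 35.2 and 26.9 FPKM (log2FC -2.49, adjusted p = 0.00225). The histone methyltransferase gene Ehmt2 also rose in females (log2FC 1.08, adjusted p = 0.00329) and fell in males (log2FC -1.65, adjusted p = 0.00324). Hdac1, a histone deacetylase gene, was called higher in males (log2FC 1.10, adjusted p = 0.00716), as was Dnmt3b, which is on the epiblast list as well. Kdm1a, a histone demethylase gene, was also called lower in males (log2FC -1.15, adjusted p = 0.0195).

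**Figure D4:**
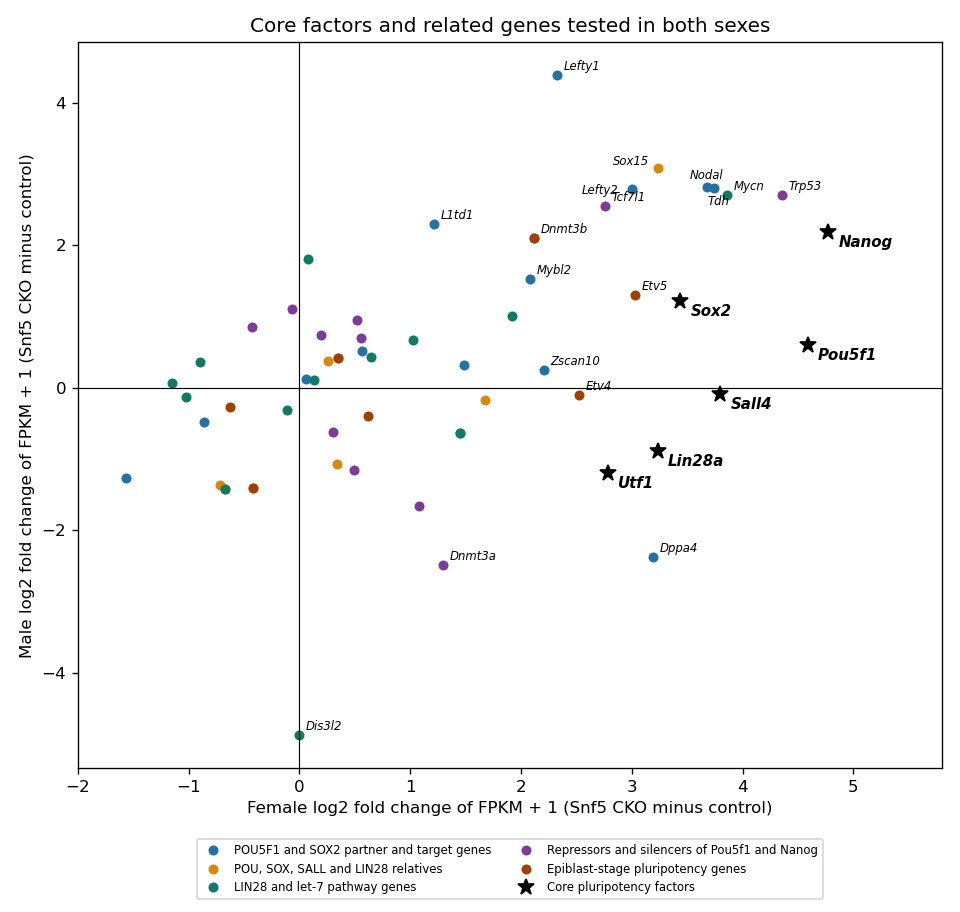
Log2FC of FPKM + 1, Snf5 CKO minus control, in females (horizontal) and males (vertical), for the 6 core factors (black stars) and the genes of 5 related lists tested in both sexes (points, coloured by list, with 1 gene left out; a gene on 2 lists has the colour of the later one). The 6 stars lie between 2.79 and 4.77 on the female axis and spread from -1.20 to 2.18 on the male axis. Genes of the lists are labelled where a value passes 2 in size. The isolated point at -4.87 is Dis3l2, whose male level is above 0 in 1 library.

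The genes with the pattern most like each factor were found over the 8 libraries among 10463 genes tested in both tables, by the root mean square difference of log2(FPKM + 1) after the control mean of the same table was taken off. Nearest to Pou5f1 was Dppa3, a maternal factor gene of germ cells (difference 0.20), followed by Tcl1 and Slc25a5. Dppa3 was at 41.2 and 61.3 FPKM in female controls and at 1406 and 1632 FPKM in female Snf5 CKO. Its male levels were 1754 and 2025 FPKM in control and 2276 and 2979 FPKM in Snf5 CKO. Nearest to Nanog was Gdf3, a TGF-beta family gene (difference 0.12), at 0.235 and 0.740 FPKM against 30.0 and 38.7 FPKM in females and at 8.05 and 8.72 FPKM against 40.4 and 41.6 FPKM in males, followed by Porcn and 1700019D03Rik. Nearest to Sox2 were Pvrl2 (difference 0.15), Igfbpl1 and Serpinh1, nearest to Utf1 were Rsph1 (0.23), Fam169b and Tgfb1, nearest to Sall4 were Cdc42ep4 (0.13), Liph and Mbp, and nearest to Lin28a were Prtg (0.13), Slc35f2 and F11r. None of the 6 factors was among the 3 genes nearest to another. Among the 6, Sall4 and Lin28a were closest to each other (difference 0.50), and Nanog and Utf1 were farthest apart (1.97). This measure carries the difference between groups and ranks likeness only.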

How the data were processed

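Each library was made from sorted E15.5 germ cells with a SMART-Seq v4 kit and Nextera XT. The authors mapped paired-end reads on mm10 with Tophat and quantified them with Cufflinks in 1 run per sex, and deposited FPKM values with Cufflinks confidence bounds for each locus and library. Per the labels, the submitters' processing notes name TopHat2 2.2.1 and Cuffdiff 2.1.1, whereas the paper gives Tophat 2.1.1 and Cufflinks 2.2.1. The gene annotation and the way libraries were scaled are not given in the sources used here. FPKM values are not counts, and neither depth nor a counting interval can be had from them.

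The tables of the sexes were fitted separately on log2(FPKM + 1) with limma 3.58.1 in R 4.3.3 (lmFit, then eBayes with a trend). Named genes entered the fit if they averaged at least 1 FPKM in their table. A gene was called at an adjusted p under 0.05 and a log2FC of at least 1 in size, and standard errors are those of the moderated fit. Where a gene had several loci, the locus of highest mean FPKM was taken, and each of the 6 factors had 1 locus with status OK in every library. Loci without a name were left out. As a check of the code, the fit was run on simulated data with planted changes and independent noise. That simulation held no effect of the replicate number, so it does not show how the fit behaves on these libraries.

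Replicate numbers are called experiments in the male columns, and in both sexes the labels name raw files of replicates 1 and 2 in different styles. No label states a shared batch, but the number was treated as marking one. The deviations of same-numbered libraries from their group means correlated at 0.50 in females and 0.61 in males across genes. The fit without this block is the one reported, with the block among the alternatives. Further alternatives changed the pseudocount to 0.1, the filter to none or to an average of 5 FPKM, the scaling to a common sum over named loci or to median-of-ratios, and the test to eBayes lacking the trend or to unmoderated variances. Loci of the same name were also summed, and each library was left out in turn.

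The 6 factors, the 5 related lists and the marker lists were chosen with earlier results of these data known. Genes named from a related list are up to 4 called genes with the largest change in each sex, and every called gene where a count is 5 or fewer. Some other members are given with their values, and 1 gene that this rule names is not reported here. Gene positions came from GENCODE M21 and start site windows from RefSeq, both on GRCm38. Versions of Python (3.11.15) and matplotlib (3.10.9) apply to the figures.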

Additional observations from a re-analysis of the deposited data

Results flagged for a closer look

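The effect of Snf5 CKO went in opposite directions in the sexes for 2 of the 6 factors, with both Snf5 CKO libraries above both controls in females and below both controls in males. The log2FC of Utf1 was 2.79 in females and -1.20 in males, and that of Lin28a was 3.24 in females and -0.88 in males, the last of which was not a call. Of all tested genes, 36.4% had both Snf5 CKO libraries above both controls in females, and 40% had both below in males. The share of genes with both patterns at once was not counted, so 2 of 6 is not read as unusual. The sexes were quantified and fitted separately, so the difference between them was not tested.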

How the results depend on the processing

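Of 78 values of the 6 factors under 13 alternatives, 77 in females and 67 in males kept their direction and their side of the threshold. Without moderation of variances, female Utf1 was no longer called (2.79, adjusted p = 0.0887), so 5 of 6 were called, and in males 1 factor was called higher and 0 lower, with Sox2 at 1.21 (adjusted p = 0.0539) and Utf1 at -1.20 (adjusted p = 0.141). The calls over all genes fell as well, to 870 higher and 1054 lower in females and 278 and 369 in males, against 1992, 2488, 1761 and 2141 as reported. A common sum over named loci left 1 factor called higher in males, with Sox2 at 1.04 (adjusted p = 0.0701), and moved the median of all genes by 0.02 in females and -0.19 in males. Median-of-ratios rescaling moved it by 0.15 in both sexes and gave male Sall4 0.072. With each library left out in turn, male values ranged from -1.44 to -0.96 for Utf1, from -0.29 to 0.11 for Sall4 (0.075 without control replicate 1) and from -1.20 to -0.57 for Lin28a, and the count called lower in males from 0 to 1. A lone library is then assumed to vary like the other group. A mean of at least 5 FPKM left 1347 genes called lower in males and 7 partner and target genes called higher in females, where fewer genes are tested. With the replicate block, 6 factors were called higher in females, and 2 higher and 1 lower in males, so it changed no call of a factor. Male Utf1 was then at -1.20 (adjusted p = 4.6e-05). The block takes a further coefficient from the 4 libraries of a sex. Its p-values therefore rest more on variance shared across genes, and no label states the batch. Of called genes of the other lists, 499 alternative values in females and 615 in males kept their call and 33 and 60 lost it, and none changed direction. Smarcb1 in females had an adjusted p of 0.0556 without moderation. The cause of these changes was not tested. With no counts, no counting interval of low values can be given.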
